A study of Mus musculus with 18 samples.

Results

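The interferon-stimulated genes described here are 47 genes that cells raise in response to interferon. They were chosen by symbol from a fixed list and all 47 were found among the 15052 genes of the deposited liver table. They were divided into 10 genes of the *Oas*, *Ifit* and *Mx* families, which respond mainly to type I interferon, 9 GTPase genes (*Gbp2*, *Gbp3*, *Gbp6*, *Gbp7*, *Igtp*, *Irgm1*, *Irgm2*, *Iigp1* and *Ifi47*), which respond strongly to interferon-gamma, and 28 other members. Bulk RNA-seq had been made from polyA RNA of whole liver of 18 mice labelled female, to compare alcohol-induced injury with and without *Apoe*, the gene of apolipoprotein E. Pair-fed animals comprised 4 WT and 5 *Apoe* KO mice, and EtOH-fed animals comprised 5 WT and 4 *Apoe* KO mice, the last numbered 1, 2, 4 and 5. Per the study's methods, WT mice were C57BL/6J, WT and *Apoe* KO mice were purchased, and mice were 10 to 12 weeks old. All were first acclimated to a liquid diet for 5 days. EtOH-fed mice then drank a liquid diet with 5% ethanol for 10 days and received 1 ethanol gavage at 5 g per kg on day 11. Pair-fed mice received control diet for 10 days and a gavage of dextrin maltose at 9 g per kg. Livers were taken 9 h after the gavage. Whether WT and KO mice were littermates is not given in the sources used here.

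Interferons bind receptors on the cell surface and activate JAK kinases and STAT transcription factors. Type I interferon acts mainly through the interferon-stimulated response element (ISRE) in the DNA of its target genes, whereas interferon-gamma acts mainly through the gamma-activated site (GAS) and through IRF1. The induced proteins detect viral RNA, cut or block it, and, in the case of the GTPases, take part in defence against microbes that live in vacuoles. In liver, hepatocytes, Kupffer cells and other leukocytes all respond, and many of these genes answer both interferons.

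The sequence upstream of the transcription start is shown for 8 members. They were chosen because a comparison turns on them (*Oas3*, *Ifit3*, *Rsad2*, *Igtp*, *Gbp2*) or because the 2 motifs stand side by side (*Igtp*, *Irgm2*). The others are examples of repeated ISRE matches (*Isg15*) and of a GAS match alone (*Irf1*). Each line gives the 160 bases directly before the transcription start in RefSeq on GRCm38.p6, 5′ to 3′ on the gene's own strand. Capitals mark matches to the ISRE core (GAAA, any 2 bases, GAAA) or to the GAS letters (TTC, any 3 bases, GAA) on either strand. An ISRE on the other strand reads TTTC, 2 bases, TTTC, and overlapping matches run together.
Oas3 (chr5:120777660-120777819, minus strand): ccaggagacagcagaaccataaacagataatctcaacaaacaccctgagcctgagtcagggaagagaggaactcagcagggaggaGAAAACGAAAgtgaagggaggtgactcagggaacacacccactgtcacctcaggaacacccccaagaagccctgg
Ifit3 (chr19:34583369-34583528, plus strand): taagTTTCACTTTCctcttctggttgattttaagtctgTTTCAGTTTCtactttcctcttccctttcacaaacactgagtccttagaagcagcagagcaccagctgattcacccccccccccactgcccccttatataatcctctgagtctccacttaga
Rsad2 (chr12:26456453-26456612, minus strand): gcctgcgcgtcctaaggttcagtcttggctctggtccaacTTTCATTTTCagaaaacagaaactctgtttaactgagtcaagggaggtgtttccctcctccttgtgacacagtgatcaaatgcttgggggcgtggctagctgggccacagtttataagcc
Isg15 (chr4:156200819-156200978, minus strand): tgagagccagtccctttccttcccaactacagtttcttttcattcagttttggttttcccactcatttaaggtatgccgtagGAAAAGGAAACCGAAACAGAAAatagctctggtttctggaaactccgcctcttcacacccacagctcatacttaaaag
Igtp (chr11:58199396-58199555, plus strand): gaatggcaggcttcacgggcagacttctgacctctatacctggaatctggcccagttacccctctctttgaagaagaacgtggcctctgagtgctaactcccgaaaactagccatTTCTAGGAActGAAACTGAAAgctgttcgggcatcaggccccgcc
Irgm2 (chr11:58214817-58214976, plus strand): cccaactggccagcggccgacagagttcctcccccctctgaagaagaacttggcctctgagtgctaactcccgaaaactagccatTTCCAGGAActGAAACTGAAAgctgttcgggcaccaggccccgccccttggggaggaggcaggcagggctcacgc
Gbp2 (chr3:142620503-142620662, plus strand): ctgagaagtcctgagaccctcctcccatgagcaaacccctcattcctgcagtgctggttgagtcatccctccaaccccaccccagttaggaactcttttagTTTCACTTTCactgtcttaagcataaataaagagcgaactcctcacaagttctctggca
Irf1 (chr11:53769854-53770013, plus strand): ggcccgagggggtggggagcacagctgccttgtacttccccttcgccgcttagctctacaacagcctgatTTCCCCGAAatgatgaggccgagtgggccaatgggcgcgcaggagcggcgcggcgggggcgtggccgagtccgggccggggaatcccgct
The *Isg15* stretch holds 3 ISRE matches that overlap, the first beginning 78 bases before the start. In *Igtp* and *Irgm2*, which are neighbours on chromosome 11, a GAS match stands just upstream of an ISRE match, beginning 45 and 75 bases before their starts. *Irf1* has a GAS match and no ISRE match in the window used. RefSeq windows of 300 bases, from 250 before to 50 after a start, were found for 35 of the 47 members, and 17 of them (48.6%) held the ISRE letters against 3.99% of 27025 genes with a window. GAS letters were found in 9 members (25.7%) against 9.55% of all genes. ISRE letters were present in 4 of 7 *Oas*, *Ifit* and *Mx* genes, 6 of 7 GTPases and 7 of 21 other members. These are matches of letters, and binding was not measured.

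Deposited values are read counts scaled by the authors to a nearly common total (32267493 to 32292618 per mouse), here called values, and differences are given as log2 fold changes of value + 1. Reads on genes, estimated from the spacing of low values in 16 mice, ranged from 5.60 M to 52.2 M. Among these 16, a value of 1 stood for less than 1 read in the shallowest library, pair-fed WT mouse 1. It stood for more than 1 read in the deepest of them, EtOH-fed WT mouse 1. EtOH-fed WT mice 2 and 5 were not resolved. *Apoe* itself was 611230 to 798431 in WT mice and 8586 to 108651 in *Apoe* KO mice, so genotypes matched their labels. The library labelled EtOH-fed *Apoe* KO mouse 1 went against its label for sex, with 826 of the female-specific *Xist* against 15227 to 30379 in the other mice. Its Y-linked *Ddx3y* was 1077, against 2 to 118 in the other mice, of which pair-fed *Apoe* KO mice 1 and 4 were highest (118 and 107). The main counts that rest on EtOH-fed *Apoe* KO mouse 1 are therefore also given without it. The hepatocyte markers were abundant in every mouse, with a summed value of at least 2238446. Replicates are separate animals.

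All 47 members were above 0 in every mouse, with single values between 33 (*Mx1*) and 13147 (*Iigp1*). Divided by exon length, the highest levels in pair-fed WT liver were those of *Bst2*, whose product tethers virus particles to the cell surface (6675 per kb), *Ifi27* (2870 per kb), *Iigp1* (1854 per kb) and *Igtp* (1136 per kb), and the lowest was that of *Oas3* (20.2 per kb). Relative to the pair-fed WT mean, the mean log2 level of the 10 *Oas*, *Ifit* and *Mx* genes was −0.98, −0.68, −0.40, −0.16 and −0.75 in the 5 EtOH-fed WT mice and 0.43, 0.47, 1.05 and 0.93 in the 4 EtOH-fed *Apoe* KO mice. These families were thus lower in EtOH-fed WT mice and higher in EtOH-fed *Apoe* KO mice than the pair-fed WT mean. Pair-fed WT mice themselves lay between −0.36 and 0.22, a range that held EtOH-fed WT mouse 4 at −0.16. Pair-fed *Apoe* KO mice lay between −0.36 and 0.25. The 9 GTPases stood at −1.01, −0.71, −0.69, −0.24 and −1.11 in EtOH-fed WT mice and at −0.55, −0.51, 0.39 and −0.12 in EtOH-fed *Apoe* KO mice. For them, 3 of 4 EtOH-fed *Apoe* KO mice remained below the pair-fed WT mean and the 2 EtOH-fed groups overlapped.

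**Figure D1:**
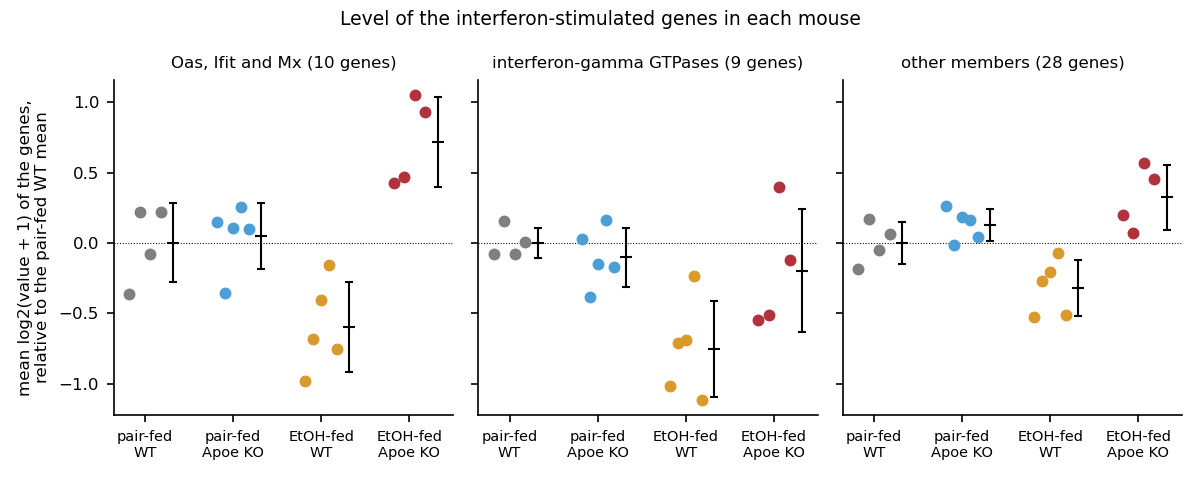
Mean log2(value + 1) of 3 sets of interferon-stimulated genes in each of 18 mice, relative to the pair-fed WT mean (dotted line), with 1 point per mouse and the group mean with SD beside it. In the left panel all 4 EtOH-fed *Apoe* KO mice (0.43 to 1.05) lie above every other mouse, and in the middle panel the EtOH-fed groups overlap.

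**Figure D2:**
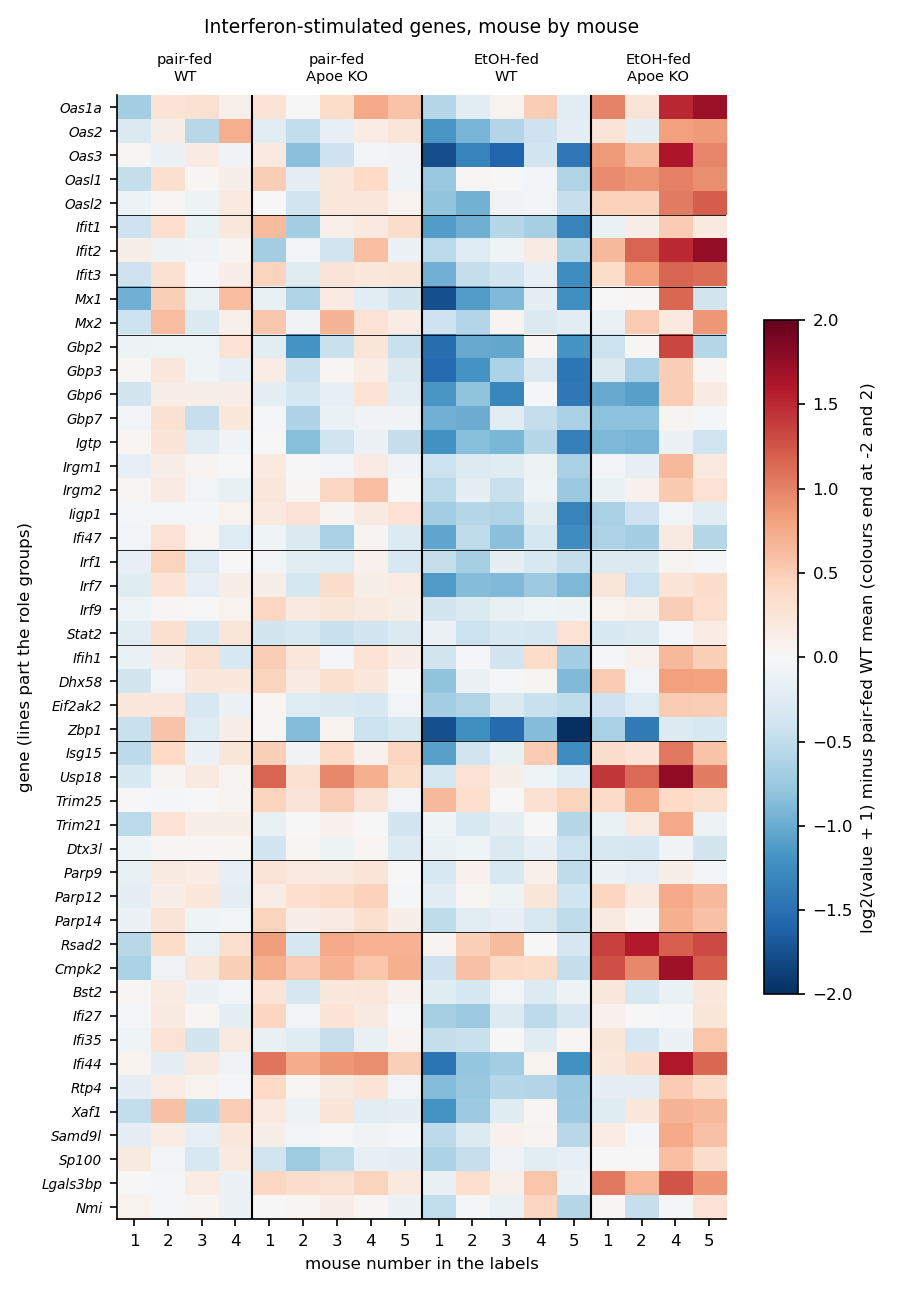
log2(value + 1) of the 47 genes in each of 18 mice minus the pair-fed WT mean, with columns numbered as in the labels, rows in role groups, red for higher and blue for lower. The EtOH-fed WT columns are mostly blue, and among EtOH-fed *Apoe* KO mice the top rows (*Oas* and *Ifit*) are mostly red.

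Whether the loss of *Apoe* changed these genes under ethanol was asked by comparing EtOH-fed *Apoe* KO with EtOH-fed WT mice. Of 47 members, 19 were higher and 0 lower (limma, Benjamini-Hochberg adjusted p under 0.05 over 15052 genes), against 4.25% of all genes called higher and 0.445% lower, and 46 had a log2 fold change above 0. Their median was 0.65, against 0.11 over all genes. The *Oas*, *Ifit* and *Mx* families accounted for 8 of the 19, with a median of 1.23, while none of 9 GTPases passed the test (median 0.49; 4 of 9 at an unadjusted p under 0.05). With median-of-ratios size factors the median of all genes moved from 0.11 to −0.02, and those of the 47 members, the 10 family genes and the 9 GTPases became 0.52, 1.10 and 0.37.

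*Oas3*, 1 of the oligoadenylate synthetases that switch on RNase L after meeting double-stranded RNA, showed the largest difference. Its values were 41, 56, 47, 109 and 52 in EtOH-fed WT mice 1 to 5 and 258, 222, 438 and 281 in EtOH-fed *Apoe* KO mice. Each EtOH-fed *Apoe* KO mouse was above all 14 other mice, of which the highest read 163. The log2 fold change was 2.32 ± 0.29 (SE; limma adjusted p = 0.0012). *Oasl1*, which restrains IRF7 translation, was 193, 332, 329, 315 and 216 against 629, 604, 659 and 627, with no overlap (log2 fold change 1.22 ± 0.18, limma adjusted p = 0.00303). *Oasl2*, the antiviral relative of it, was 249, 223, 408, 415 and 313 against 590, 590, 880 and 996 (1.25 ± 0.22 on the log2 scale, limma adjusted p = 0.00755). For both genes the 4 *Apoe* KO mice exceeded every mouse of the other 3 groups. *Oas1a* (1.21, adjusted p = 0.033) and *Oas2* (1.09, adjusted p = 0.0226) were higher too, but their groups overlapped through *Apoe* KO mouse 2. *Oas1a* lost its call under 6 of 16 alternatives (adjusted p up to 0.104), including the fit without *Apoe* KO mouse 1, and *Oas2* under 3 of 16 (up to 0.0782).

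All 3 *Ifit* genes, whose products bind viral RNA and stop its translation, were higher without overlap. *Ifit2* in EtOH-fed mice was 161, 196, 221, 263 and 151 in WT and 369, 528, 659 and 800 in *Apoe* KO (log2 fold change 1.54 ± 0.23, limma adjusted p = 0.00308). *Ifit3* was 357, 504, 536, 621 and 296 against 904, 1227, 1568 and 1511 (1.51 ± 0.22, limma adjusted p = 0.00303). *Ifit1* was 309, 340, 452, 422 and 265 against 610, 728, 950 and 769 (1.10 ± 0.18, limma adjusted p = 0.00471). In each case *Apoe* KO mouse 1 had the lowest value of its group and still exceeded the highest WT mouse. The *Mx* genes, of a family of dynamin-like GTPases, did not pass, and whether their RNA gave working protein was not measured. *Mx1* differed by 1.23 ± 0.35 on the log2 scale (limma adjusted p = 0.0664) and *Mx2* by 0.65 ± 0.21 (limma adjusted p = 0.0993), both with overlapping groups.

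Among transcription factors, *Irf7*, the amplifier of type I interferon production, was 759, 915, 898, 1005 and 888 in WT and 1974, 1232, 1998 and 2126 in *Apoe* KO mice on ethanol. The WT mice were below all 13 other mice of the study, and *Apoe* KO mouse 2 was low for its group (log2 fold change 1.01 ± 0.16, limma adjusted p = 0.00355). *Irf9*, the DNA-binding subunit of the type I complex, was 0.44 higher on the log2 scale (limma adjusted p = 0.049), a call that was lost under 10 of 16 alternatives. *Irf1* differed by 0.28 and *Stat2* by 0.07, and neither passed. The ISG15 system was split. *Usp18*, which removes ISG15 and damps the type I receptor, was 289, 451, 401, 349 and 308 against 983, 814, 1269 and 750 (1.39 ± 0.18, limma adjusted p = 0.00128), with no overlap, whereas *Isg15* itself overlapped (1.05 ± 0.31, limma adjusted p = 0.0716) and *Trim25*, *Trim21* and *Dtx3l* had adjusted p-values from 0.325 to 0.856. None of the 4 RNA or DNA sensors (*Ifih1*, *Dhx58*, *Eif2ak2*, *Zbp1*) was called at adjusted p-values from 0.0565 to 0.177, although all 4 had an unadjusted p under 0.05 and log2 fold changes from 0.51 to 0.88.

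Further effectors included *Rsad2* and *Cmpk2*, neighbours on chromosome 12 that together make a chain-terminating nucleotide. *Rsad2* was 439, 590, 659, 423 and 333 against 1098, 1277, 974 and 1054 (1.21 ± 0.18, limma adjusted p = 0.00331), and *Cmpk2* was 135, 269, 234, 231 and 128 against 438, 351, 585 and 415 (1.20 ± 0.24, limma adjusted p = 0.0137). In both, the EtOH-fed *Apoe* KO mice exceeded all other mice. *Ifi44* was 91, 147, 155, 265 and 108 against 291, 320, 766 and 561, without overlap (1.64 ± 0.33, limma adjusted p = 0.0135). Smaller differences were found for *Rtp4* (0.84), *Lgals3bp* (0.81), *Parp14* (0.72), *Parp12* (0.60) and *Ifi27* (0.57), of which *Parp12* and *Parp14* encode ADP-ribosyltransferases. *Parp12* lost its call under 9 of 16 alternatives. Across the list 17 members showed no overlap in the higher direction, against 7.12% of all genes.

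**Figure D3:**
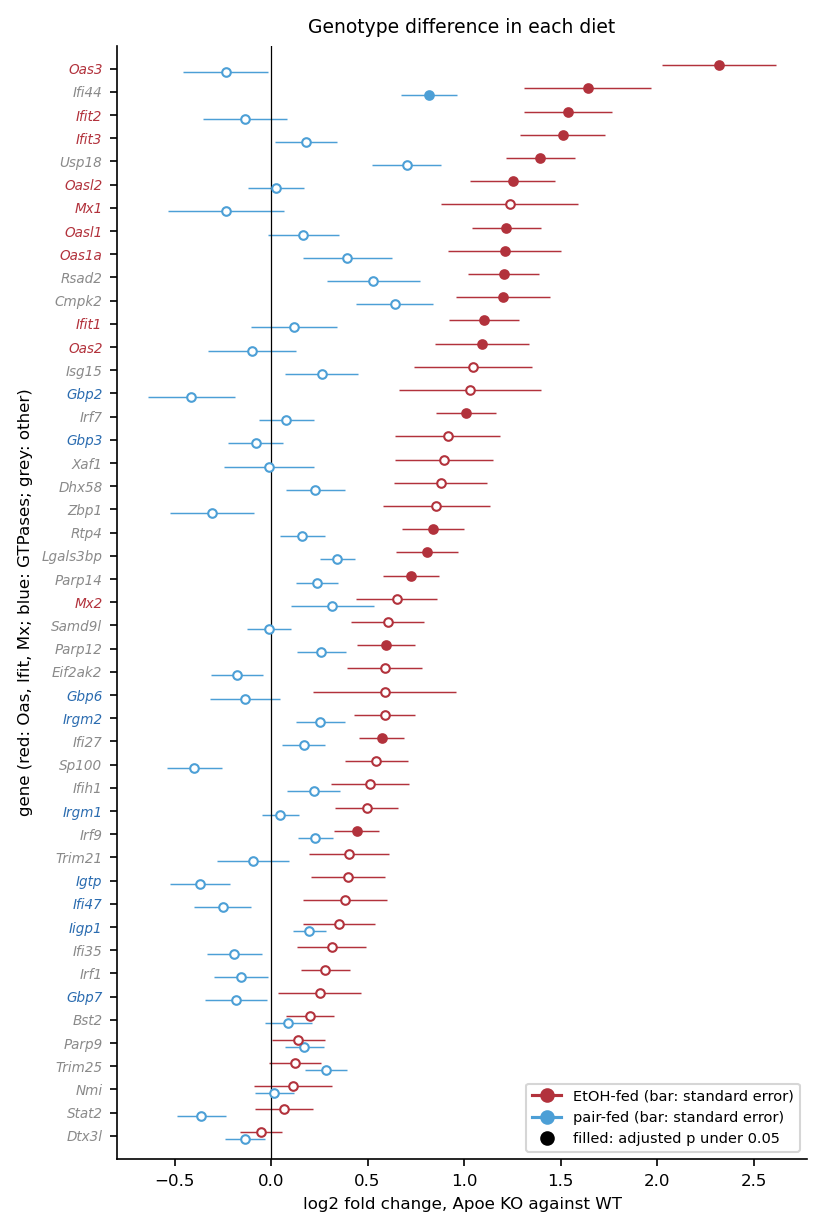
log2 fold change of *Apoe* KO against WT for each of 47 genes in EtOH-fed mice (red) and in pair-fed mice (blue), with standard errors as bars and filled points for a limma adjusted p under 0.05. In EtOH-fed mice 46 of 47 points lie above 0, led by *Oas3* at 2.32, while in pair-fed mice only *Ifi44* is filled.

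The GTPases overlapped between the EtOH-fed groups in all 9 cases. *Igtp* was 988, 1258, 1203, 1531 and 884 in WT and 1222, 1196, 2096 and 1730 in *Apoe* KO mice (0.40 ± 0.19, limma adjusted p = 0.281). *Irgm2* lay at the threshold (0.59 ± 0.16, limma adjusted p = 0.05005) and *Iigp1* differed by 0.35 ± 0.19 (limma adjusted p = 0.345). *Apoe* KO mouse 4 had the highest value of its group for all 9 GTPases and for 34 of 47 members. *Gbp2* rested most on it, with 1089 in that mouse and 288 to 439 in the other 3.

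Without EtOH-fed *Apoe* KO mouse 1, the library that went against its label, 21 members were called higher, among them 8 of 10 *Oas*, *Ifit* and *Mx* genes, with *Mx2* in place of *Oas1a*, and 1 of 9 GTPases, *Irgm2*. Without it 21 members had no overlap, against 11.1% of all genes, and 4 of 7 Kupffer cell, 6 of 9 monocyte and macrophage and 15 of 39 other interferon-stimulated gene calls were made. Leaving out each mouse in turn gave 14 to 24 calls. A fit of all 4 groups called 29 and shared its spread with the pair-fed mice. The share of all genes called in these alternative fits is not given here, so their counts of called members cannot be set against it. Markers of macrophages moved with this difference: 6 of 7 Kupffer cell markers and 7 of 9 monocyte and macrophage markers were higher, with summed values of 4656 to 8834 against 10970 to 21263 and of 2707 to 4582 against 6852 to 10796. None of 8 T and NK cell, 4 B cell, 4 neutrophil or 8 hepatocyte markers was called, and of 5 plasmacytoid dendritic cell markers *Runx2* and *Ly6d* were higher. Of the fixed lists, only 4 of 8 neutrophil and 8 of 10 T and NK cell markers were in the table used here. *Ly6g*, *Retnlg*, *Mmp8* and *Cxcr2* were among those absent, so the neutrophil list is a partial one. No marker in the table was at 0 in any mouse, and the part of these cells in the result was not tested. In bulk liver, more cells of a type and more RNA per cell cannot be told apart.

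Without ethanol few members passed. Comparing pair-fed *Apoe* KO with pair-fed WT mice, 1 of 47 members was called higher and 0 lower, against 0.87% of all genes called higher and 0.864% lower, and the median log2 fold change was 0.08 (all genes 0.00). The gene was *Ifi44*, at 265, 222, 284 and 240 in WT and 531, 422, 459, 481 and 352 in *Apoe* KO mice, with no overlap (0.82 ± 0.15, limma adjusted p = 0.0134). The call ended without pair-fed WT mouse 2 or with all 4 groups in the fit (highest adjusted p = 0.117). *Usp18* (0.70 ± 0.18, limma adjusted p = 0.0594), *Lgals3bp* (0.34, adjusted p = 0.0649), *Cmpk2* (0.64, adjusted p = 0.109) and *Irf9* (0.23, adjusted p = 0.186) also had no overlap but did not pass, so that 5 members had non-overlapping higher values, against 4.01% of all genes. *Oas3* differed by −0.24 and *Ifit2* by −0.14, both with adjusted p-values above 0.5. None of 4 B cell (median −1.30) or 8 T and NK cell markers (median −0.87) was called, with 4 and 3 at an unadjusted limma p under 0.05. Of the Kupffer cell markers 1 of 7 was lower, of the monocyte and macrophage markers 1 of 9 higher, and of the endothelial markers 1 of 5 lower. The part of these cells was not tested.

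The effect of ethanol in WT liver went downwards. In EtOH-fed against pair-fed WT mice, 0 members were higher and 14 lower, against 6.19% of all genes called higher and 6.52% lower, and 43 of 47 log2 fold changes were below 0 (median −0.36, all genes −0.01). Of the GTPases 7 of 9 were lower (median −0.80), compared with 2 of the 10 *Oas*, *Ifit* and *Mx* genes (median −0.55).

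*Igtp* was 2339, 2727, 1941 and 2182 in pair-fed WT mice and 988, 1258, 1203, 1531 and 884 in EtOH-fed WT mice, without overlap. It fell by 0.98 ± 0.16 on the log2 scale (limma adjusted p = 0.00156). Its exons share 162 bases with *Irgm2*, so their reads may be split by the counting. *Iigp1*, the most abundant member by value, was 10539, 10645, 10670 and 11330 against 6671, 7230, 7129, 9212 and 4271, again without overlap (−0.69 ± 0.17, limma adjusted p = 0.019). Guanylate-binding proteins were lower as well: *Gbp3* by −1.02 (adjusted p = 0.0119), *Gbp6* by −0.95 (adjusted p = 0.0345), *Gbp2* by −0.94 (adjusted p = 0.0255) and *Gbp7* by −0.66 (adjusted p = 0.0357). *Ifi47* changed by −0.80 (adjusted p = 0.0132). *Irgm1* (−0.34) and *Irgm2* (−0.40) had adjusted p-values of 0.0809 and 0.0717. In 8 of 9 GTPases EtOH-fed WT mouse 4 had the highest value of its group.

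*Zbp1*, a sensor of left-handed nucleic acid, had the largest decrease, from 513, 1044, 585 and 765 to 207, 298, 241, 385 and 151 (−1.52 ± 0.26, limma adjusted p = 0.0026), and every EtOH-fed WT mouse was below every pair-fed WT mouse. *Oas3* was 144, 131, 160 and 136 in pair-fed WT mice, all above the EtOH-fed WT values given earlier (−1.30 ± 0.27, limma adjusted p = 0.00807). *Irf7* was 1400, 2015, 1487 and 1819 in pair-fed WT mice, also without overlap (−0.90 ± 0.13, limma adjusted p = 0.000791). *Ifit1* (−0.93), *Rtp4* (−0.71), *Eif2ak2* (−0.51) and *Ifi27* (−0.50) were lower too. The groups did not overlap for 11 members in the lower direction, against 6.96% of all genes.

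Without pair-fed WT mouse 2 or mouse 4 the count of lower members was 8 or 9, and leaving out other mice gave up to 18. *Gbp2*, *Gbp6*, *Gbp7* and *Eif2ak2* lost their calls under 4 to 8 of 16 alternatives. Beside this, *Clec4f*, *Cd5l* and *Csf1r* were lower among 16 Kupffer cell, monocyte and macrophage markers, and 4 of 5 endothelial markers were higher. None of 4 B cell (median −0.82) or 8 T and NK cell markers (median −0.54) was called. The part of these cells in the result was not tested.

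In *Apoe* KO liver, ethanol raised members of the type I families. Against pair-fed *Apoe* KO mice, 10 members were higher and 1 lower, where 16.3% of all genes were called higher and 6.92% lower. The member share of 10 in 47 is thus close to the share of all genes in this comparison, and the median was 0.19 (all genes 0.13, and 0.06 against 0.00 with size factors). By family, 5 of 10 *Oas*, *Ifit* and *Mx* genes were higher (median 0.71, and 0.58 with size factors), and among 9 GTPases 0 were higher and 1 was lower (median −0.17, and −0.29 with size factors).

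*Oas3* was 163, 79, 107, 137 and 136 in pair-fed *Apoe* KO mice, all below the EtOH-fed *Apoe* KO values (1.26 ± 0.25, limma adjusted p = 0.00282). *Ifit2* was 144, 226, 177, 356 and 217 in the pair-fed mice, all below the lowest EtOH-fed mouse at 369 (1.40 ± 0.26, limma adjusted p = 0.00201). *Oasl1* (0.77, adjusted p = 0.00265), *Oasl2* (0.77, adjusted p = 0.00898) and *Ifit3* (0.68, adjusted p = 0.0113) completed the 5. The other called members were *Rsad2* (0.84), *Cmpk2* (0.65), *Usp18* (0.63), *Sp100* (0.63), a nuclear body protein, and *Lgals3bp* (0.62). The EtOH-fed values lay above the pair-fed ones without overlap for 8 members, against 14% of all genes. *Usp18* lost its call under 6 of 16 alternatives, size factors included.

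The lower member was *Iigp1*, at 12353, 13147, 11188, 12213 and 13116 in pair-fed and 6860, 8099, 10370 and 9240 in EtOH-fed *Apoe* KO mice, with no overlap (−0.54 ± 0.11, limma adjusted p = 0.00455). This GTPase was therefore lower under ethanol in both genotypes. *Irf7* (0.03), *Ifit1* (0.05) and *Ifi44* (0.01) had adjusted p-values above 0.8. Without EtOH-fed *Apoe* KO mouse 1 the counts were 10 higher, 5 of them in the *Oas*, *Ifit* and *Mx* families, and 1 lower, and 10 members had no overlap in the higher direction, against 18.8% of all genes. Endothelial (4 of 5 higher, median 1.10), Kupffer cell (3 of 7 higher, median 0.79) and monocyte and macrophage markers (4 of 9 higher, median 0.79) moved with the comparison. Of 5 plasmacytoid dendritic cell markers 2 were higher, but the median of the 5 was 0.10, near that of all genes (0.13). None of 8 T and NK cell (median 0.56) or 4 B cell markers (median 0.71) was called. The part of these cells in the comparison was not tested.

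**Figure D4:**
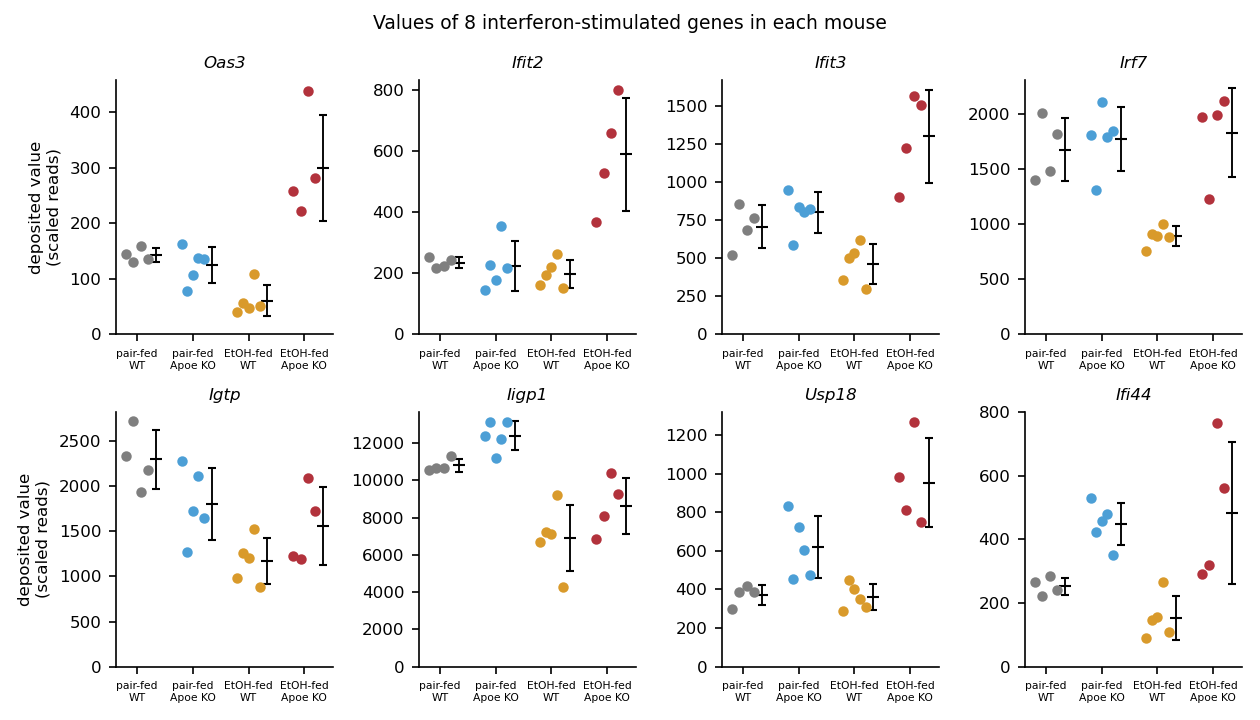
Deposited values of 8 interferon-stimulated genes in each of 18 mice by group, with 1 point per mouse and the group mean with SD beside it, on linear axes from 0. *Oas3* and *Ifit2* are highest in all 4 EtOH-fed *Apoe* KO mice, *Irf7* is lowest in all 5 EtOH-fed WT mice, and *Iigp1* is lower in both EtOH-fed groups than in the pair-fed group of the same genotype.

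Whether the ethanol effect differed by genotype was tested as the interaction of diet and genotype over all 18 mice, which draws on the same mice as the comparisons above. It was called above 0 for 7 of 47 members and below 0 for 0, against 2.6% of all genes above and 0.239% below 0. The 7 were *Oas3* (2.56 ± 0.38, limma adjusted p = 0.00298), *Ifit2* (1.67 ± 0.33, adjusted p = 0.0112), *Ifit3* (1.33, adjusted p = 0.0176), *Oasl2* (1.23, adjusted p = 0.0204), *Oasl1* (1.05, adjusted p = 0.0353), *Sp100* (0.94, adjusted p = 0.0255) and *Irf7* (0.93, adjusted p = 0.026). Of these 5 belong to the 10 *Oas*, *Ifit* and *Mx* genes, and none of the 9 GTPases passed, although all 9 estimates were above 0 (median 0.63, 5 at an unadjusted p under 0.05). The median over members was 0.65 against 0.11 over all genes, and 1.21 over the 10 family genes. Markers were called above 0 for 3 of 7 Kupffer cell (median 1.43), 3 of 9 monocyte and macrophage (median 1.18) and 2 of 5 plasmacytoid dendritic cell genes. None of 4 B cell (median 1.49) or 8 T and NK cell markers (median 1.16) was called, though their medians were of similar size. Of these, 4 and 3 had an unadjusted limma p under 0.05. The part of all these cells in the result was not tested.

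The 2 ethanol effects have no mice in common and can be set side by side. *Oas3* was called in both, lower in WT and higher in *Apoe* KO mice, and *Iigp1* was called lower in both. *Irf7* was called lower in WT mice and was near 0 in *Apoe* KO mice, whereas *Ifit2*, *Oasl1* and *Sp100* were called higher in *Apoe* KO mice and had log2 fold changes of −0.27, −0.28 and −0.31 in WT mice that did not pass. All 10 *Oas*, *Ifit* and *Mx* genes had a log2 fold change below 0 in WT and above 0 in *Apoe* KO mice, as did 2 of 9 GTPases and 17 of 28 other members. In *Apoe* KO mice the median of all genes was itself 0.13, and *Ifit1* (0.05) and *Mx2* (0.04) lay below it. Some of the other members were near 0 there, such as *Ifi44* (0.01). The share of all genes with such opposite signs is not given here. *Oas3* and *Ifit2* kept an interaction call under each of 24 alternatives. The count was 9 without EtOH-fed *Apoe* KO mouse 1 (5 in the 10 family genes), 2 without pair-fed WT mouse 4, 3 without EtOH-fed *Apoe* KO mouse 4 or mouse 5, and 4 without EtOH-fed WT mouse 1.

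**Figure D5:**
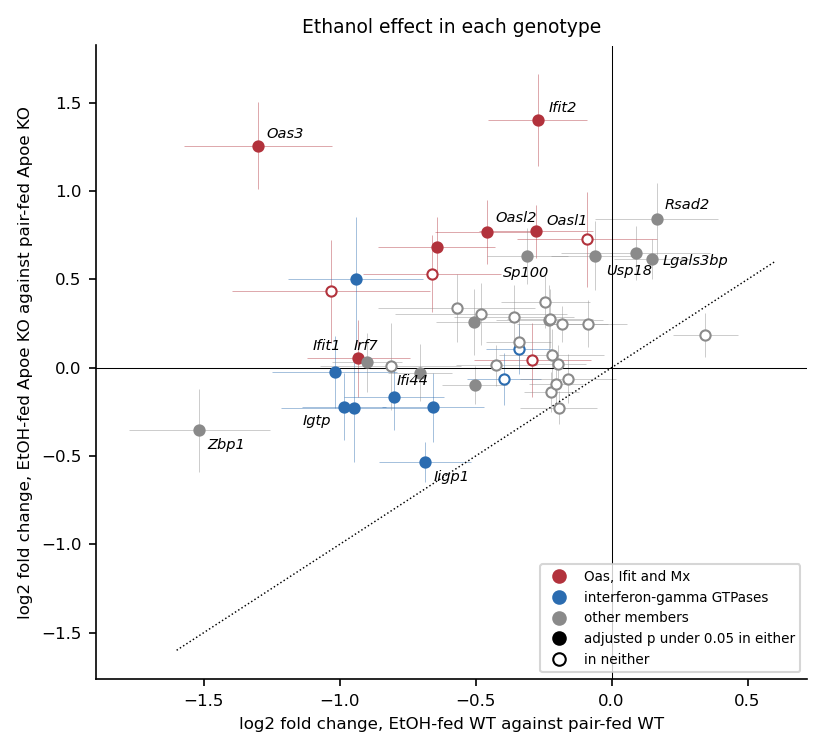
log2 fold change of EtOH-fed against pair-fed mice in WT (horizontal) and *Apoe* KO (vertical) for 47 genes, with standard errors as bars, the dotted line for equal effects, and filled points for a limma adjusted p under 0.05 in either genotype. Most points lie above the line, *Oas3* at −1.30 and 1.26, and the GTPases (blue) lie mostly at the lower left.

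Genes of the pathway outside the members were counted from fixed lists. None of 9 interferon genes was in the table used here, so ligands were not analysed. Of 5 receptor genes, *Ifngr1*, the interferon-gamma binding chain, was higher in EtOH-fed *Apoe* KO than EtOH-fed WT mice (0.63 ± 0.16, limma adjusted p = 0.0428) and than pair-fed *Apoe* KO mice (0.52, adjusted p = 0.0212). The kinase gene *Jak1* was called higher in EtOH-fed than in pair-fed WT mice (0.41, adjusted p = 0.0493). Of 7 inhibitors, *Socs3* was lower (−1.32, adjusted p = 0.000186) and *Ptpn2* higher (0.43, adjusted p = 0.0347) under ethanol in *Apoe* KO mice. Of 18 genes that sense nucleic acid and induce interferon, *Tlr7* (1.31, adjusted p = 0.0347), *Irf8* (0.76, adjusted p = 0.0222) and *Unc93b1* (0.55, adjusted p = 0.0432) were higher in EtOH-fed *Apoe* KO than EtOH-fed WT mice. Without EtOH-fed *Apoe* KO mouse 1, *Tlr7*, *Unc93b1* and *Ptpn2* lost these calls. Calls among the same 18 sensing and induction genes were also made in other comparisons, with all mice. Under ethanol 2 were higher and 1 lower in WT mice, and 3 were higher and 0 lower in *Apoe* KO mice. The interaction was called above 0 for 1 of them.

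Among 39 other interferon-stimulated genes, 15 passed as higher and none as lower when the EtOH-fed genotypes were compared. They included the DNA-binding p200 family members *Ifi211* (1.83, adjusted p = 0.0068), *Ifi209* (1.73, adjusted p = 0.00332) and *Ifi204* (1.29, adjusted p = 0.00246) and the chemokine *Cxcl10* (1.26, adjusted p = 0.0453), a call lost without *Apoe* KO mouse 1. In WT mice under ethanol 9 were lower and 0 higher, among them the interferon-gamma chemokine *Cxcl9* (−1.48, adjusted p = 0.000613), *Ifi209* (−1.55, adjusted p = 0.000689) and the helicase *Ddx60* (−1.16, adjusted p = 0.00195). In *Apoe* KO mice under ethanol 13 were higher, including *Gbp4* (1.25, adjusted p = 0.00416), and 1, *Gbp10*, was lower (−1.48, adjusted p = 0.0029), counts that were 14 and 1 without *Apoe* KO mouse 1. *Gbp11* was the only one called between pair-fed genotypes (−1.57, adjusted p = 0.0165). Reads of the *Gbp* genes, of *Ifit3* with *Ifit3b* and of *Oas1a* with *Oas1g* may be divided between near-identical copies, and the strand of the counting is not given in the sources used here, which also touches *Dtx3l* and *Parp9*, whose exons overlap by 458 bases on opposite strands.

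Mice of a group differed in the level of the whole list. The median SD of a member's log2 value was 0.22 in each pair-fed group and, under ethanol, 0.32 in WT and 0.36 in *Apoe* KO mice. Besides *Apoe* KO mouse 4, EtOH-fed WT mouse 4 was the highest of its group for 27 of 47 members and mouse 5 the lowest for 22. In EtOH-fed *Apoe* KO mice, mouse 2 was the lowest for 23 members and mouse 1 for 17. Pair-fed WT mouse 2 was highest for 25 and mouse 1, the shallowest library, lowest for 25.

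Members with and without ISRE letters were also set beside their calls. Of 17 members with ISRE letters 5 were called in EtOH-fed *Apoe* KO against EtOH-fed WT mice, and of 18 without them 9 were called. In EtOH-fed against pair-fed WT mice, 7 of 17 with and 2 of 18 without the letters were called. The 7 were the GTPases *Gbp2*, *Gbp3*, *Gbp7* and *Igtp*, and *Oas3*, *Ifit1* and *Eif2ak2*. As 6 of 7 GTPases with a window held the letters, letters and family cannot be told apart here. Over all genes, 4.25% were called higher in the first comparison and 6.52% lower in the second. The share among all genes with the letters is not given here. The *Oas3* window printed above holds an ISRE match, and the window of *Oasl1*, also called higher, holds neither motif as searched.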

How the data were processed

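Total liver RNA of 18 mice was sequenced after polyA selection. Per the labels' processing notes, the authors used FastQC, Trimmomatic, HISAT2, SAMtools, featureCounts and DESeq2 with GRCm38, versions not given in the sources used here. The deposited values are a signal: read counts scaled by the authors to nearly common totals and rounded, a step the methods do not describe. The authors' columns of log2 fold changes, standard errors and p-values were not used. Of 15247 lines, 195 repeats of a gene were dropped. Reads per library were estimated from the step between low values, resolved in 16 of 18 mice (5 of 5 simulated steps were recovered within 1%). Whole reads were not recovered for all mice, so no count test was run, and no interval from counts is given.

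Groups came from the labels. log2(value + 1) was fitted with limma 3.58.1 in R 4.3.3 (empirical Bayes with trend, two-sided), with Benjamini-Hochberg adjustment over 15052 genes, a threshold of 0.05, no filter, and the mice of the compared groups only, except for the interaction. In simulated data for EtOH-fed *Apoe* KO against EtOH-fed WT mice (15052 genes), 42 of 100 changes of log2 size 1 and 97 of 100 of size 2 were called, with 11 false calls. Alternatives were a mean value of at least 50, a pseudocount of 5, median-of-ratios size factors, array quality weights, a replicate block, all 4 groups in the fit and leaving out each mouse. A fit by voom on estimated reads was added after the data were seen. For EtOH-fed WT mice 2 and 5, whose step was not resolved, voom and the simulation took values as reads. Comparisons between EtOH-fed and pair-fed groups and between genotypes share mice. Positions and exon lengths came from GENCODE M21 (GRCm38), and promoter windows from RefSeq (GRCm38.p6). Python 3.11.15, pandas 2.3.3, numpy 2.4.6 and matplotlib 3.10.9 were used. Members and lists were chosen with earlier results of these data known. Every member could be named, with full statistics for called members and the 5 lowest p-values of a comparison.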

Additional observations from a re-analysis of the deposited data

Results flagged for a closer look

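In 11 of 188 sets of values (47 genes in 4 groups) 1 mouse stood apart from its group by Dixon's gap ratio, where chance gives about 1 in 20, or 9.4. In pair-fed WT mice, *Gbp2* was 518 in mouse 4 against 403 to 405 (ratio 0.98), *Iigp1* was 11330 in mouse 4 against 10539 to 10670 (0.829), *Gbp6* was 150 in mouse 1 against 211 to 213 (0.973), *Dtx3l* was 1855 in mouse 1 against 1989 to 2016 (0.838) and *Parp14* was 1385 in mouse 2 against 1078 to 1120 (0.847). In pair-fed *Apoe* KO mouse 2, *Gbp7* was 765 against 1074 to 1156 (0.822) and *Rsad2* was 335 against 685 to 758 (0.876). In EtOH-fed *Apoe* KO mouse 4, *Ifi47* was 770 against 425 to 458 (0.874) and *Dtx3l* was 1879 against 1519 to 1566 (0.857). In EtOH-fed *Apoe* KO mouse 2, *Irf7* was 1232 against 1974 to 2126 (0.864) and *Trim25* was 5578 against 4060 to 4282 (0.832).

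The ethanol effect differed between genotypes by the interaction term (limma, adjusted p under 0.05) for *Oas3* (2.56), *Ifit2* (1.67), *Ifit3* (1.33), *Oasl2* (1.23), *Oasl1* (1.05), *Sp100* (0.942) and *Irf7* (0.932).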

How the results depend on the processing

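No called gene changed direction under the alternatives run, and the list medians moved by less than the spread between mice. For the pair-fed genotypes, the medians near 0 changed sign without WT mouse 1, to −0.0037 over all members and −0.0162 over the *Oas*, *Ifit* and *Mx* genes. The count of called members was 31 with a replicate block and 29 with all 4 groups in the fit for EtOH-fed *Apoe* KO against EtOH-fed WT mice (19 as reported). The block fit kept only mouse numbers present in both groups, so EtOH-fed WT mouse 3 was not in it. For the alternatives the share of all genes called is not given here, so a higher or lower count is not a result about the members alone. Between pair-fed genotypes it was 2 with array quality weights, 2 with the block and 0 with all 4 groups (1 as reported). Leaving out each mouse gave 14 to 24 calls for the EtOH-fed genotypes, 0 to 4 for the pair-fed genotypes, 8 to 18 for ethanol in WT, 10 to 15 for ethanol in *Apoe* KO and 2 to 10 for the interaction. Between pair-fed genotypes, mice 2 and 5 of *Apoe* KO (2 and 3 calls) and mice 2 and 3 of WT (0 and 4 calls) decided the count. Calls kept under every alternative numbered 14 of 19 for the EtOH-fed genotypes, 10 of 11 for ethanol in *Apoe* KO, 7 of 14 for ethanol in WT, 2 of 7 for the interaction and 0 of 1 for the pair-fed genotypes. The causes were not tested.

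The labels give same-numbered mice only a number in common. Their deviations correlated at −0.0242 to 0.23 in the EtOH-fed groups, with 3 of 4 pairs over 0.1, and no more than 0.159 in the other comparisons. The numbers were not taken to pair mice, and shared handling by number was not tested. With the block, 13 members were called for ethanol in WT, 13 for ethanol in *Apoe* KO and 9 for the interaction. A member that did not pass may still differ, and 1 read stands for 5.76 units in the shallowest library.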
